A study of Bos taurus with 18 samples.

Results

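MAP2K6 encodes MKK6, a kinase of the mitogen-activated protein kinase cascades, and 71 of the 31500 cytosines measured in this series lay in the stretch of chromosome 19 whose nearest start site, in the tables of the study, is that of MAP2K6. The members were all measured cytosines in a CpG context between positions 61926556 and 61938273 of the bosTau8 cattle assembly, with no selection among them. The ends of this stretch are cytosines that the study listed as differentially methylated, so the borders, though not the members inside, depend on these libraries. The assignment is one of distance: these tables put the cytosines 112 to 123 kb upstream of the start site and outside the gene, and the assembly of the start sites is not named. In the RefSeq annotation of another cattle assembly, ARS-UCD2.0, ABCA5, ABCA10, ABCA6 and ABCA9, a group of lipid transporter genes, follow MAP2K6 on one side, and KCNJ16, KCNJ2 and SOX9, which encode 2 potassium channels and a transcription factor, lie on the other.

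Methylation was measured by reduced representation bisulfite sequencing (RRBS), which sequences a CpG-rich part of the genome after unmethylated cytosines have been converted. The cells were EBTr, an established line of bovine embryonic tracheal fibroblasts, passaged in treatment media before collection. There were 6 treatments with 3 libraries each, 18 in all. Low Control and High Control cells received glucose at 1.0 or 4.5 g/L with the basal epigenetic modifiers (EM: folate, choline, vitamin B12 and methionine) of the medium, and Low ×2.5, Low ×5, High ×2.5 and High ×5 cells received the EM at 2.5 or 5 times that level at the same glucose, except that methionine was held at a lower, common multiple in all supplemented media. All libraries come from 1 cell line, and nothing states that the libraries of a treatment came from separate cultures, so that p-values measure the spread between these libraries, which may be technical. Transcription of MAP2K6 was not analysed here.

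MKK6 phosphorylates and activates the p38 kinases, which carry signals of stress and inflammation and act on differentiation and the cell cycle. It is itself activated by kinases further up, among them TAK1 and ASK1, and it shares its targets with its close relative MKK3. Methylation of a CpG adds a methyl group to the cytosine. The methyl group comes from S-adenosylmethionine, which cells make from methionine, and folate, vitamin B12 and choline serve to regenerate methionine. A methylated promoter is often silent, whereas methylation far from a start site has no fixed relation to expression.

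The members were not spread evenly over their 11718 bp. All but 1 fell into 7 clusters of 3 or more cytosines, with neighbours in a cluster less than 100 bp apart, and the clusters together covered 9.25% of the stretch. The longest empty interval was 3782 bp. Cluster 1 (chr19:61929306-61929447) held 12 cytosines, cluster 2 (chr19:61930998-61931022) held 3, cluster 3 (chr19:61931959-61932050) held 8 and cluster 4 (chr19:61932168-61932275) held 7. Cluster 5 (chr19:61936057-61936178) held 16, cluster 6 (chr19:61937314-61937662) held 17 and cluster 7 (chr19:61938028-61938273) held 7. The first member, 61926556, was in no cluster. The measured cytosines continued on both sides: the next lay 8 bp before the first member, with a level of 80.1%, and 30 bp after the last, with a level of 65.7%. The first and last members themselves were at 87.0% and 42.3%.

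The region was mostly methylated, with cytosines of low level close to highly methylated ones, and 1 member was under 10%. A methylation level here is the percent of methylated reads that the deposited M-value implies. The mean over the 71 cytosines ranged from 65.4% to 70.0% between libraries, while the mean over all 31500 ranged from 67.2% to 70.0%. Of the members, 32 were at 80% or more (45.1%, against 40.9% of all cytosines measured) and 18 were under 50% (25.4%, against 19.9%). The lowest was 61932002 in cluster 3, with a mean level of 8.78%, and the highest was 61929379 in cluster 1, with 92.5%. The members were about as variable as the other cytosines. Their median standard deviation within a treatment was 0.45 on the log2 scale of the M-values, and that of all cytosines was 0.43. The most variable over the 18 libraries was the last member, 61938273, with an SD of 10.5 points, and the least variable was 61937662 at the end of cluster 6, with an SD of 1.93 points.

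Levels differed more between clusters than between treatments. Clusters 4 and 5 were the most methylated, with means of 82.6% and 82.3% over the 18 libraries. Cluster 1 had a mean of 70.96%, cluster 6 of 63.0% and cluster 2 of 59.5%. Clusters 3 and 7 were lowest, with 48.8% and 49.1%, and their order is not resolved, since their ranges over libraries were 44.2% to 52.5% and 44.2% to 57.1%. The ranges of clusters 4 and 5, 78.0% to 86.3% and 76.2% to 85.2%, also overlapped almost wholly. Clusters 3 and 4 were separated by little more than 100 bp, and yet every library of cluster 4 was above every library of cluster 3. Within clusters the spread was wide: in cluster 3 single cytosines ran from 8.78% to 92.0%, in cluster 1 from 26.5% to 92.5% and in cluster 7 from 14.7% to 84.3%. In cluster 4 they ran only from 75.8% to 87.7%.

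**Figure D1:**
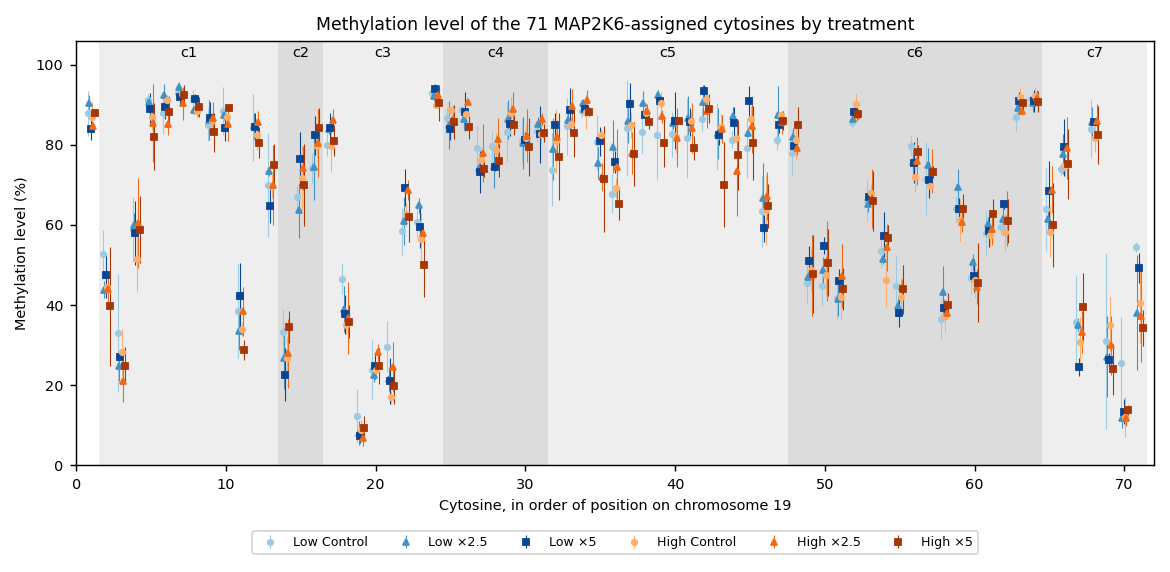
Mean methylation level (y axis, percent) of each of the 71 cytosines in order of position (x axis) in the 6 treatments; points are means of 3 libraries, bars are 1 SD and shaded bands (c1 to c7) mark the 7 clusters. Neighbouring cytosines differ by far more than the treatments do, from 8.78% to 92.5% as means over all libraries, while the 6 treatments mostly lie on top of each other.

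At 10 places members came as pairs of positions 1 bp apart, and these pairs held 20 members, 6 in cluster 3 and 14 in cluster 5. Such a pair is most simply read as the cytosines on both strands of 1 CpG, but the sequence was not at hand and abutting CpGs cannot be told apart from it. In 8 of the 10 pairs the mean levels were within 6.0 points of each other. In the pair 61932001 and 61932002 the first was at 38.5% and the second at 8.78%, and the second was lower in all 18 libraries. In the pair 61936164 and 61936165 the first was at 84.1% and the second at 64.2%, again lower in all 18. The median absolute difference was 4.42 points over the 10 pairs and 1.83 points over the 6516 such pairs in the whole table, as a description.

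Across libraries, cytosines of the same cluster varied together only weakly. Correlations over the 18 libraries were taken on the M-values as deposited, so that shifts of whole libraries were not removed. Their median was 0.10 for 385 pairs of members in 1 cluster, leaving out the pairs 1 bp apart. For 2090 pairs in different clusters, or with the member in no cluster, it was 0.02. Cluster 4 (median 0.22 over 21 pairs, 95.2% of them positive) and cluster 5 (median 0.20 over 113 pairs, 72.6% positive) had the highest medians. In cluster 7 the median was -0.09 over 21 pairs. These pairs share libraries and, within a cluster, may share reads, and the correlations are given as a description.

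The mean level of the members barely moved with treatment. It was 68.0% ± 1.19 (SD, n = 3) in Low Control, with libraries at 69.3%, 67.0% and 67.7%, then 68.3% ± 0.370 (SD, n = 3) in Low ×2.5 and 68.7% ± 1.19 (SD, n = 3) in Low ×5. In high glucose it was 67.4% ± 0.854 (SD, n = 3) in High Control, 68.1% ± 0.989 (SD, n = 3) in High ×2.5 and 66.6% ± 1.17 (SD, n = 3) in High ×5. From highest to lowest the order was Low ×5, Low ×2.5, High ×2.5, Low Control, High Control and High ×5, and each treatment overlapped its neighbour in this order. The order depended on the processing: with libraries centred on their medians Low Control was highest (69.0%) and Low ×2.5 was at 67.5%, and by the median over cytosines Low Control was lowest (74.5%). The means over all cytosines measured were 68.2%, 69.4% and 69.5% in Low Control, Low ×2.5 and Low ×5 and 69.2%, 68.8% and 68.3% in High Control, High ×2.5 and High ×5.

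The study compared the treatments in 10 contrasts, each asking whether EM or glucose altered methylation at single cytosines, and these were tested with limma on the M-values of all 31500 cytosines. Calls rest on an unadjusted p-value under 0.01, the threshold of the study. A called cytosine is methylated if it was higher in the treatment named first, and demethylated if lower. Of the 710 tests of members in the 10 contrasts, 6 were called, 1 methylated and 5 demethylated. This is 0.845%, and 1.49% of all tests in the table were called at the same threshold, 0.756% methylated and 0.736% demethylated, so the share of calls among the members was below that of the table. The 6 calls fell on 5 cytosines and in 3 contrasts, and 66 members had none. No member passed a Benjamini-Hochberg adjusted p-value under 0.05 in any contrast with limma. The number of members with an unadjusted p-value under 0.05 ran from 2 in High ×2.5 vs. High Control to 10 in High ×5 vs. Low Control. These were 2.8% and 14.1% of the members, against 5.0% and 7.7% of all cytosines in the same contrasts. The 3 libraries of one treatment did not overlap the 3 of the other in 83 of the 710 tests, or 11.7%, against 10.7% of all tests in the table, so this share was near the background.

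**Figure D2:**
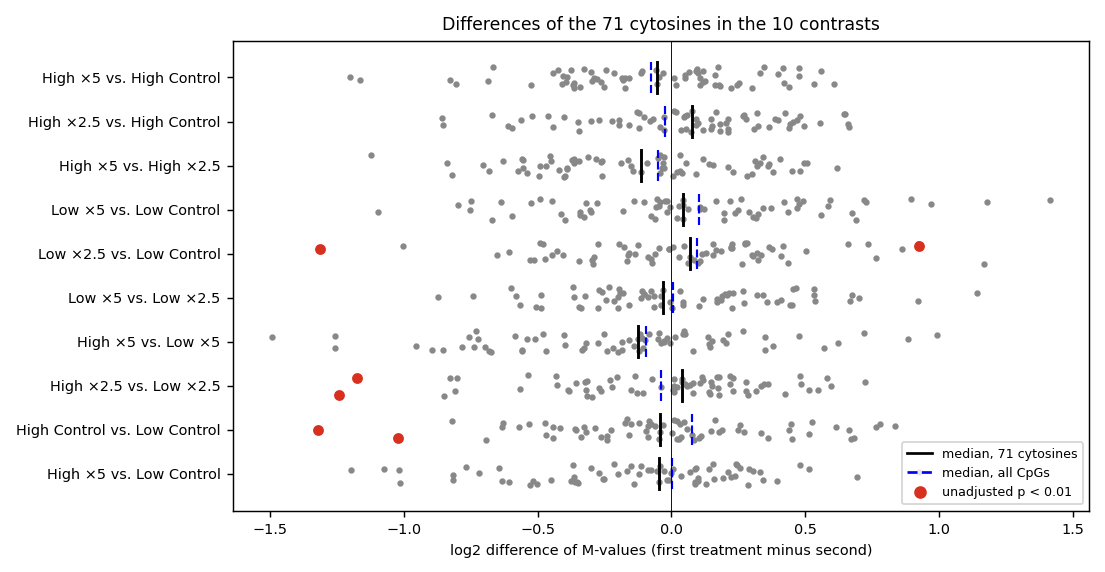
Difference of mean M-values (x axis, log2, first treatment minus second) of each of the 71 cytosines in the 10 contrasts (y axis; points are jittered vertically); red points have an unadjusted p-value under 0.01, and bars mark the median of the members (black) and of all cytosines measured (blue, dashed). The 6 red points lie in 3 contrasts, 5 of them to the left of 0.

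Without supplement, high against low glucose called 2 members, both demethylated in High Control, against a background of 1.92% of all cytosines in this contrast. The first was 61938240, the last but one cytosine of the stretch, in cluster 7. Its level was 18.8%, 19.05% and 38.9% in the 3 Low Control libraries and 17.5%, 7.89% and 10.9% in the High Control libraries. All 3 Low Control libraries were above all High Control libraries, but replicate 3 of Low Control stood far above the other two. Over the members of cluster 7 this library stood only at 27.8%, 38.9%, 55.6%, 72.2% and 77.8%. Such coarse steps are those that few reads give, and their part in the call was not tested. The difference was -1.32 on the log2 scale of the M-values (SE 0.38, limma adjusted p = 0.494). Without replicate 3 of each treatment it was -0.79 and without replicate 2 it was -1.25, and in neither case was it called.

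The second was 61932011 in cluster 3, the partner of 61932010 in a pair 1 bp apart. It was at 22.5%, 34.4% and 32.0% in Low Control and at 18.9%, 16.05% and 16.13% in High Control, again without overlap. The difference was -1.02 (SE 0.32, limma adjusted p = 0.503), and the call was lost without replicate 2 (-0.80) or replicate 3 (-0.89). The other treatments lay between these 2 groups, from 19.9% in High ×5 to 24.6% in High ×2.5. Over all members the median difference in this contrast was -0.04, and over all cytosines it was 0.08. Of the 71 members 34 were higher and 37 lower in High Control.

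In low glucose, ×2.5 EM called 2 members against Low Control, with a background of 2%. One was 61938240 again, at 11.5%, 14.3% and 9.38% in Low ×2.5, below all Low Control libraries. Its difference was -1.31 (SE 0.38, limma adjusted p = 0.461), and -0.66 without replicate 3, where it was no longer called. Both calls of this cytosine share the Low Control libraries. In the other 5 treatments its mean level ran only from 11.7% to 13.9%, whereas the Low Control mean was 25.6%. Low Control thus stood apart from all of them. In the class of 61938240, the 1061 cytosines in the table with mean levels from 0% to 20%, the medians had the same sign. They were -0.30 in High Control vs. Low Control and -0.33 in Low ×2.5 vs. Low Control. The other was 61936116 in cluster 5, the only methylated cytosine among the calls. It was at 88.6%, 77.8% and 83.3% in Low Control and at 93.2%, 87.4% and 90.7% in Low ×2.5, where the lowest treated library lay below the highest control library. The difference was 0.92 (SE 0.31, limma adjusted p = 0.486). The call was lost without any one of the 3 replicates, with a range of 0.89 to 0.98 for the difference. It was also lost after median centring (0.78) and after quantile normalization (0.74). The same held on percent levels, with the robust, trended prior and with only the 6 libraries of the contrast. Of 10 alternatives 2 kept it.

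At ×2.5 EM, high against low glucose called 2 members, both demethylated in High ×2.5, with a background of 1.01%. The cytosine 61936158 in cluster 5 was at 82.1%, 77.8% and 60.6% in High ×2.5 and at 88.4%, 88.7% and 84.6% in Low ×2.5. The groups did not overlap, and replicate 3 of High ×2.5 was the lowest of all 18 libraries. The difference was -1.24 (SE 0.38, limma adjusted p = 0.945), and the call was lost without any one of the replicates (-1.50 to -0.95). Averaged over the 3 EM levels, 61936158 was also lower in high glucose, by -0.65 (SE 0.22, limma adjusted p = 0.905). It was the only member called for this average, with a background of 1.08%. The average includes the ×2.5 libraries just given, and in the controls the level was 81.6% in high and 81.3% in low glucose. The call was lost without replicate 1 (-0.69) or replicate 2 (-0.56), with the robust, trended prior, and on percent levels.

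The cytosine 61929361 in cluster 1 was at 87.8%, 84.6% and 82.9% in High ×2.5 and at 91.9%, 90.1% and 95.6% in Low ×2.5. Every High ×2.5 library was below every Low ×2.5 library. The difference was -1.18 (SE 0.39, limma adjusted p = 0.945), and the call was lost in each fit without one replicate (-1.44 to -0.69). In this contrast 42 of the 71 members were higher in High ×2.5 and 29 lower, with a median difference of 0.04.

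**Figure D3:**
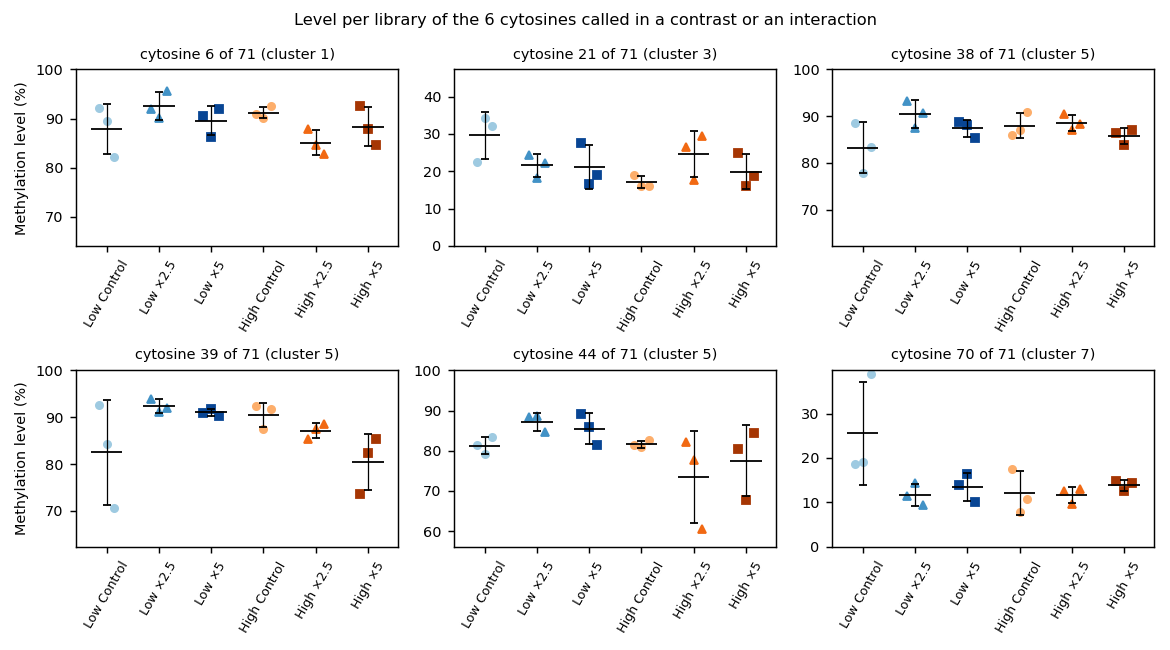
Methylation level (y axis, percent) of the 6 cytosines called in a contrast, the glucose average or an interaction, in each library of the 6 treatments (x axis), titled by their order among the 71; points are libraries, black lines are treatment means and bars 1 SD, and the axes do not all start at 0. The cytosine 70 of 71 (61938240) is at 11.7% to 13.9% in 5 treatments and at 25.6% in Low Control, where 1 library is at 38.9%.

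No member was called in the other 7 contrasts. The background was 1.37% in High ×5 vs. High Control, 1.02% in High ×2.5 vs. High Control, 1.47% in High ×5 vs. High ×2.5, 2.4% in Low ×5 vs. Low Control, 0.371% in Low ×5 vs. Low ×2.5, 1.61% in High ×5 vs. Low ×5 and 1.75% in High ×5 vs. Low Control. The members with the smallest p-values there had differences of sizes like those of the called ones. In Low ×5 vs. Low Control this was 61936127 in cluster 5, at 94.0%, 91.9% and 94.6% in Low ×5 and at 89.7%, 84.2% and 85.2% in Low Control, without overlap (1.18, SE 0.41, limma adjusted p = 0.424). In High ×5 vs. Low ×5 it was 61938064 in cluster 7, at 29.6%, 45.8% and 42.9% in High ×5 and at 25%, 26.5% and 22.0% in Low ×5 (0.99, SE 0.34, limma adjusted p = 0.620). This cytosine had the opposite direction to most members, of which 49 were lower and 22 higher in High ×5 than in Low ×5.

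In High ×5 vs. Low Control the smallest p-value belonged to the last member, 61938273, at 37.0%, 29.2% and 36.7% in High ×5 and at 53.1%, 54.5% and 55.6% in Low Control (-1.20, SE 0.43, limma adjusted p = 0.577). The groups did not overlap. Of the other treatments of this cytosine Low ×5 was narrow (SD 3.76 points), whereas Low ×2.5 was wide (SD 14.3 points), with libraries from 23.1% to 51.6%. In High ×5 vs. High ×2.5 it was 61932180 in cluster 4 (84.4% against 90.6%, difference -0.82, SE 0.29), and in High ×5 vs. High Control 61936122 in cluster 5 (80.4% against 90.5%, difference -1.20, SE 0.44). In High ×2.5 vs. High Control it was 61929361 (85.1% against 91.2%, difference -0.85, SE 0.39). In Low ×5 vs. Low ×2.5 it was the first member, 61926556 (83.9% against 90.5%, difference -0.87, SE 0.36). The first and last members are the borders of the stretch, set by calls of the study in these libraries. Their small p-values are therefore not independent of how the stretch was chosen. An F-test over the 6 treatments called no member, with a background of 1.44%. In it 3 members (4.2%, against 6.8% of all cytosines) had an unadjusted p-value under 0.05, with 61936122 the lowest (limma adjusted p = 0.696).

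Most cytosines of cluster 5 were above the control at ×5 EM in low glucose and below it in high glucose. Cluster means were tested in a limma fit of their own, over the mean M-values of all 2663 clusters of 3 or more cytosines in the table. The mean level of cluster 5 was 84.2%, 78.3% and 78.2% in Low Control, 85.2%, 83.8% and 84.1% in Low ×2.5, and 84.8%, 85.1% and 84.3% in Low ×5. In high glucose it was 84.7%, 81.2% and 83.9% in High Control, 83.7%, 83.0% and 79.4% in High ×2.5, and 78.1%, 76.2% and 82.5% in High ×5. All 3 High ×5 libraries were below all 3 Low ×5 libraries. Replicate 1 of Low Control stood with the supplemented low glucose libraries, and replicate 3 of High ×5 stood above the other two. At cytosines such as 61936057 and 61936164, levels in the other Low Control and High ×5 libraries are fractions with small denominators, as few reads would give. Those of Low ×5 have larger denominators. Values from few reads are drawn toward the middle of the scale, and the part of this in the result was not tested.

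In High ×5 vs. Low ×5 the cluster 5 difference was -0.62 (SE 0.18, limma adjusted p = 0.375), the only call among the 7 clusters in the 10 contrasts. In this contrast 2.44% of all clusters were called, and 1.84% over the 10 contrasts. Of the 16 cytosines 14 were lower in High ×5, although none was called singly, and the median difference of the 9511 cytosines in the table with mean levels from 80% to 90%, the class that holds the mean of cluster 5, was -0.19. Within low glucose the cluster was higher at ×5 than in the control by 0.50 (SE 0.18, limma adjusted p = 0.250), with 13 of 16 cytosines higher, and at ×2.5 by 0.43 (SE 0.18, limma adjusted p = 0.372), with 15 of 16 higher. Within high glucose it was lower at ×5 than in the control by -0.41 (SE 0.18, limma adjusted p = 0.541), with 14 of 16 lower. These 3 contrasts did not reach the threshold of 0.01. The same 9511 cytosines had medians of 0.23 in Low ×5 vs. Low Control, 0.19 in Low ×2.5 vs. Low Control and -0.14 in High ×5 vs. High Control, each of the same sign as cluster 5.

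The difference between the glucose levels in the response to ×5 EM, which is the interaction, was -0.90 for cluster 5 (SE 0.25, limma adjusted p = 0.120), and 15 of the 16 cytosines had a value below 0. In this interaction 6.53% of all clusters were called. The median interaction over all 31500 cytosines was -0.18, and over the 9511 cytosines of like level it was -0.36, of the same sign as in cluster 5. The libraries moved with it as a whole: Low Control had a mean over all cytosines of 69.6%, 67.8% and 67.2% in replicates 1 to 3, and replicate 1 was also the highest in cluster 5. The part of this in the result was not tested. Median centring moves all cytosines of a library by the same amount and cannot remove a shift that depends on level. In the table the median interaction at ×5 ran from 0.57 for cytosines at 0% to 20% to -0.50 for those at 90% to 100%. The share of all clusters called is given only for the values as deposited. After each library had been centred on its median the interaction was -0.65 and the High ×5 vs. Low ×5 difference was -0.49, and both were called. After quantile normalization they were -0.58 (limma adjusted p = 0.498) and -0.44 (limma adjusted p = 0.835), also called. Without replicate 2 of each treatment neither was called (-0.77 and -0.48), and without replicate 1 the High ×5 vs. Low ×5 difference was -0.60 and was not called either.

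**Figure D4:**
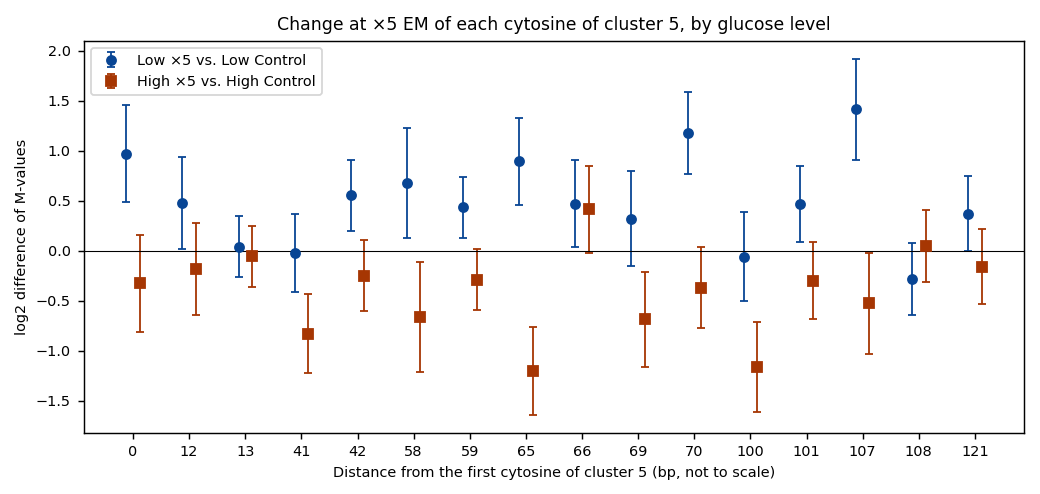
Difference of mean M-values (y axis, log2) at ×5 EM against the control for each of the 16 cytosines of cluster 5, by distance from the first (x axis, bp, evenly spaced), in low glucose (blue circles) and high glucose (brown squares); bars are 1 SE. In low glucose 13 of 16 points lie above 0 and in high glucose 14 of 16 lie below.

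Single members also showed such interactions. With ×5 EM, 61936122 in cluster 5 had an interaction of -2.10 (SE 0.62, limma adjusted p = 0.285), the only member called, with a background of 2.79%. It was at 92.7%, 84.2% and 70.6% in Low Control and at 90.9%, 91.8% and 90.2% in Low ×5, a difference of 0.89 (SE 0.44). It was at 92.3%, 87.5% and 91.7% in High Control and at 73.7%, 82.4% and 85.3% in High ×5, a difference of -1.20 (SE 0.44). The 3 Low Control libraries spread over more of the scale than those of any other treatment of this cytosine. Its lower Low Control and High ×5 levels are fractions with small denominators, as given for cluster 5. The call was lost without replicate 2 (-2.31) or replicate 3 (-1.71). Its partner 1 bp away, 61936123, had an interaction of -0.05 (SE 0.62). With ×2.5 EM, 61929361 in cluster 1 had an interaction of -1.62 (SE 0.55, limma adjusted p = 0.533), again the only member called, with a background of 1.85%. It was higher in Low ×2.5 than in Low Control by 0.76 and lower in High ×2.5 than in High Control by -0.85. Of 9 alternatives 3 kept this call. Without replicate 3 of each treatment the interaction was -0.64, and it was also not called without replicate 2 (-2.01), after median centring (-1.43), after quantile normalization (-1.33), on percent levels or with the robust, trended prior.

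The other clusters showed smaller differences, none of which was called as deposited. Cluster 3 was lower in High Control than in Low Control, by -0.34 (SE 0.13, limma adjusted p = 0.370), with libraries at 47.2%, 47.1% and 45.7% against 49.8%, 49.9% and 52.0%. Of its 8 cytosines 5 were lower. After centring of the libraries this difference was -0.45 and was called, as was that of cluster 1 in the same contrast (-0.36; limma adjusted p = 0.407 for both). Cluster 1 was lower in high glucose averaged over the EM levels, by -0.21 (SE 0.08, limma adjusted p = 0.957), in 10 of 12 cytosines. Its level ran from 72.9% ± 1.45 (SD, n = 3) in Low Control to 69.4% ± 2.99 (SD, n = 3) in High ×5. In cluster 4 all 7 cytosines were lower in High ×5 than in High ×2.5, with a cluster difference of -0.43 (SE 0.20, limma adjusted p = 0.862). They may share reads. The 9511 cytosines with mean levels from 80% to 90%, the class that holds the mean of cluster 4, had a median of -0.08 in this contrast. Clusters 2, 6 and 7 had no contrast with an unadjusted p-value under 0.05 in limma. Without replicate 2 of each treatment, however, cluster 7 was called as lower than Low Control in Low ×2.5 (-0.54, against -0.29 with all libraries) and in High ×5 (-0.64, against -0.34). Cluster 6, the longest, ran only from 61.9% ± 1.28 (SD, n = 3) in High Control to 64.0% ± 1.74 (SD, n = 3) in High ×5.

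**Figure D5:**
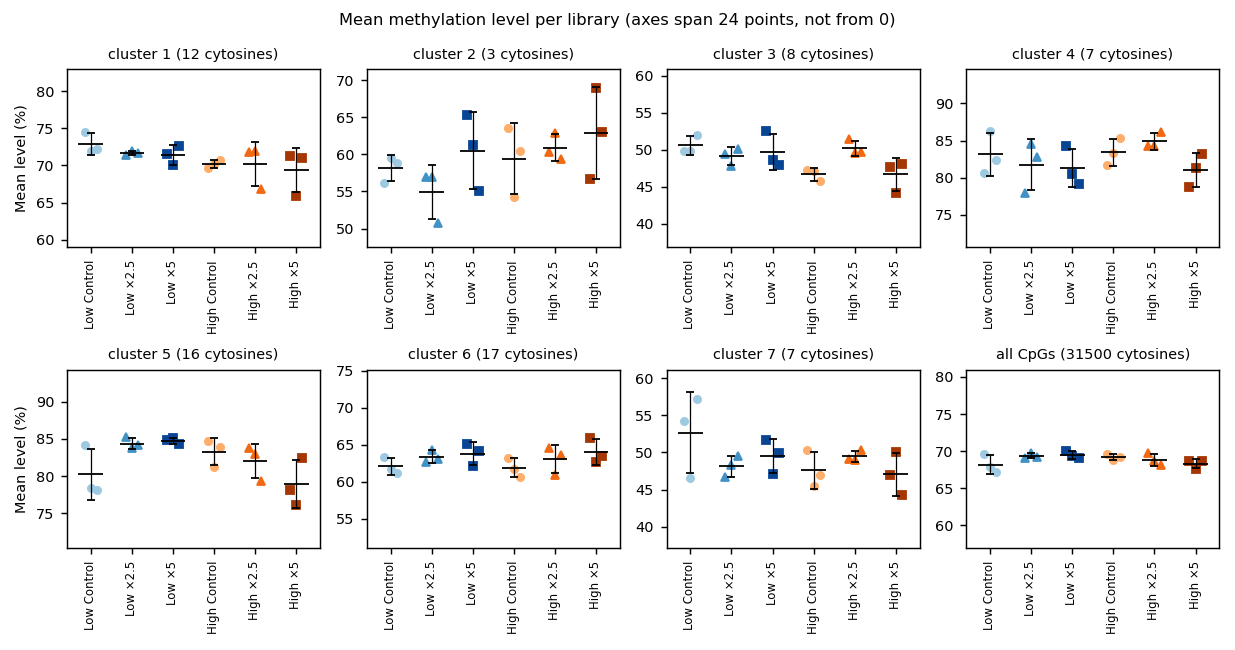
Mean methylation level (y axis, percent, each axis spanning 24 points) per library in the 6 treatments (x axis) for the 7 clusters and for all 31500 cytosines; points are libraries, black lines are treatment means and bars 1 SD. In cluster 5 the High ×5 libraries (76.2% to 82.5%) lie below the Low ×5 libraries (84.3% to 85.1%), while clusters 1 and 6 show treatment means within a few points of each other.

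Of a list of 33 genes of the p38 and JNK pathways, 6 had measured cytosines between positions that the study's tables assign to them, and 27 had none. Those tables list cytosines called by the study in these libraries. The 27 may therefore have measured cytosines nearby, and each span exists and ends where the study had calls. MAPK8, which encodes the kinase JNK1, had 15 calls over the 10 contrasts in 95 cytosines (1.58% of its tests). PAK1, a kinase activated by Rac and Cdc42 that lies above these cascades, had 87 calls in 743 cytosines (1.17%). GADD45G, a stress-induced activator of MAP3K4, had 5 calls in 59 cytosines (0.847%). TAB3, a subunit of the TAK1 complex, and DUSP26, a phosphatase, had 1 cytosine each and no call. Without MAP2K6 the list had 107 calls, 61 methylated and 46 demethylated, or 1.19% of its tests. None of these shares is above the 1.49% of the whole table except that of MAPK8, and the difference was not tested. Since the spans were set by calls, their shares and that of the table are not on the same footing.

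Beside the spans assigned to ARRDC3, an arrestin-like gene, and SFRP1, an inhibitor of Wnt signals, that of MAP2K6 had fewer calls. ARRDC3 had 25 calls in 127 cytosines (1.97%) and SFRP1 had 32 in 130 (2.46%), against 6 in 71 (0.845%), with no test of the difference. All 3 spans end at cytosines that the study called in these libraries. Among 228 gene spans of 10 or more cytosines, those whose mean M-value followed that of MAP2K6 most closely over the 18 libraries, each centred on its median, were INTS10 (Pearson's r 0.63, 287 cytosines on chromosome 27), MIR2404-2 (r 0.57, 318 cytosines on chromosome 8) and DHX15 (r 0.53, 111 cytosines on chromosome 6). The median r over the 228 spans was 0.03. All spans share the same libraries, and these values are the highest of many.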

How the data were processed

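The authors trimmed the RRBS reads with cutadapt, mapped them to bosTau8 with Bismark 0.22.3, and retained CpG cytosines that passed their coverage limits. The values the authors deposited are log2 M-values, 1 for each of 31500 cytosines in each of 18 libraries, that is the log2 of methylated over unmethylated reads, each plus an offset. Read numbers are not listed with these values and were not used in the tests, so no counting interval is given. Many levels are nonetheless plain fractions, whose denominators bear on the read number. Values from few reads lie closer to 0. No scaling between libraries was added.

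The members and lists were chosen with earlier results of these data known. Levels were computed as the percent the M-value implies. Tests used lmFit and eBayes of limma 3.58.1 under R 4.3.3 (4.11 prior degrees of freedom, two-sided, all libraries, 1 mean per treatment), and Benjamini-Hochberg adjustment ran over the whole table. A call is an unadjusted p-value under 0.01. The study tested counts with edgeR, which M-values do not allow. Clusters are runs of at least 3 cytosines less than 100 bp apart, tested on their mean M-values. Cluster 7 was tested with 1 further cytosine outside the stretch (8 in all), and the counts of its cytosines and its levels use the 7 members. Named cytosines are those called, those with the smallest p per contrast and in the F-test, the first and last, and those with extreme levels or SD. The fit was tested on simulated data. Groups and replicate numbers came from the sample labels. The contrast that the study's methods list in duplicate was read as Low ×5 vs. Low ×2.5. No genome of this build was used here, and no sequence was read. Alternatives were another eBayes prior, a replicate block, other scalings, percent levels, a filter on levels, other cluster gaps, only the 6 libraries of a contrast, and leaving out each replicate.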

Additional observations from a re-analysis of the deposited data

Results flagged for a closer look

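3 results differed between the glucose levels by a test of the difference itself, the interaction in limma, at an unadjusted p-value under 0.01. For the interaction at ×5, 6.53% of all clusters and 2.79% of all cytosines were called, and at ×2.5 1.85% of all cytosines. Of the 71 members 1 (1.41%) was called in each interaction, below these shares of cytosines. The response of cluster 5 to ×5 EM differed by -0.90 (SE 0.25, limma adjusted p = 0.120, below 0 in 15 of 16 cytosines), with an adjusted p-value from 0.105 to 0.600 over the alternatives. The response of cytosine 61936122 to ×5 EM differed by -2.10 (limma adjusted p = 0.285), with an adjusted p-value from 0.258 to 0.743. The response of cytosine 61929361 to ×2.5 EM differed by -1.62 (limma adjusted p = 0.533), with an adjusted p-value from 0.278 to 0.987. All 3 use the control libraries of both glucose levels, and 61936122 is 1 of the 16 cytosines of cluster 5.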

How the results depend on the processing

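Alternatives were run for the counts of calls, the mean levels, the main comparisons of the named cytosines and both called differences of cluster 5, and none of these differences changed sign, but the order of the treatments' mean levels did change. Of the values that answer a comparison, 135 stayed on their side of the threshold or within the spread, 34 counts or calls rose past it, 25 fell below it and 13 levels moved, and for the named cytosines these were 109, 11 and 37 with none moved. The cause of these changes was not tested. Shares over all cytosines or clusters are given only for the fit of all libraries as deposited. The counts under the alternatives below therefore stand without a background, and a higher count may go with a higher share in the whole table. Counts of called members without any one replicate ran from 0 to 1 (High ×5 vs. High Control, High ×2.5 vs. High Control), 0 to 2 (High ×5 vs. High ×2.5, High ×5 vs. Low Control), 0 to 4 (Low ×5 vs. Low Control, High ×5 vs. Low ×5), 1 to 2 (Low ×2.5 vs. Low Control), 0 to 3 (High Control vs. Low Control, the glucose average and both interactions) and 0 to 0 (High ×2.5 vs. Low ×2.5, where both calls were lost, Low ×5 vs. Low ×2.5 and the F-test). The number of clusters called, counted once per contrast, ran from 1 to 2, the cluster 5 difference in High ×5 vs. Low ×5 from -0.79 to -0.48 and its interaction at ×5 from -1.04 to -0.77. In fits of only the 6 libraries of a contrast, 1 member was called in High ×5 vs. High Control, Low ×5 vs. Low Control, High ×2.5 vs. Low ×2.5, High Control vs. Low Control and High ×5 vs. Low Control, 2 in High ×2.5 vs. High Control, Low ×5 vs. Low ×2.5 and High ×5 vs. Low ×5, and 0 in Low ×2.5 vs. Low Control. With percent levels there were 1 in Low ×2.5 vs. Low Control and High ×5 vs. Low Control, and 0 in High ×2.5 vs. Low ×2.5 and the interaction at ×2.5. With the robust, trended prior there were 1 in Low ×2.5 vs. Low Control and High ×5 vs. Low ×5, and 0 for the glucose average and the interaction at ×2.5. After median centring there were 1 in Low ×2.5 vs. Low Control, Low ×5 vs. Low Control and High ×5 vs. Low ×5, and 3 for the interaction at ×5. After quantile normalization there were 1 in High ×5 vs. Low ×5 and 3 for that interaction. Under both scalings 1 member was called for the interaction at ×2.5, but not 61929361. Clusters called numbered 3 with a gap of 50 bp (cluster 5 and, in 2 contrasts, part of cluster 7) and with only levels of 10% to 90%, and 4 after centring and after quantile normalization. With the replicate number as a block, 2 members were called in High ×5 vs. Low Control and no other count changed by over 1.5 times. Deviations of same-numbered libraries from their treatment means correlated between -0.106 and 0.115, 1 of 45 pairs over 0.1, so no pairing by number was seen at single cytosines. Shifts shared by whole libraries do not enter these correlations, and joint handling of same-numbered libraries was not tested. The mean level of the members, taken as the median over cytosines, was 74.5%, 76.4% and 77.1% in Low Control, ×2.5 and ×5 and 77.1%, 76.2% and 75.5% in High. As the mean M-value turned into a percent it was 71.5%, 72.1%, 72.5%, 70.96%, 71.6% and 69.7% in the same order, and with centred libraries it was 69.0%, 67.5%, 67.8%, 66.9%, 68.2% and 67.2%, so that Low Control was above Low ×2.5, unlike in the values as deposited. By the median over cytosines High Control was above High ×2.5, again unlike them. With 3 libraries per treatment, read numbers not taken into account and no adjusted p-value under 0.05, single calls are not established. A member without a call may still differ.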
